A study of Mus musculus with 2 samples.

Results

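Cytochrome P450 genes encode heme enzymes that use molecular oxygen to hydroxylate or epoxidise small lipophilic molecules. Members of families 1 to 3 are best known for oxidising drugs and other foreign compounds, family 4 for hydroxylating the ends of fatty acid and eicosanoid chains, and the higher-numbered families for sterols, bile acids, vitamin D, steroid hormones and retinoic acid. In the gut wall these enzymes meet compounds from food and microbes before the blood carries them to the liver. The members were all protein-coding mouse genes whose GENCODE symbol has the form of a numbered P450 family, subfamily letter and gene number. The rule took 98 of 43346 Ensembl genes, spread over 16 families and 38 subfamilies, and 21474 of all the genes were protein-coding. The rule itself uses no measured level.

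The levels came from the colon of C57BL/6J mice, an inbred laboratory strain, taken as adults at 8 weeks of age, with no treatment or genetic change in the labels. There was 1 group of 2 polyadenylated RNA libraries, numbered as biological replicates 1 and 2, so the design gives the levels of the genes in this tissue and a comparison of the libraries with each other. The labels call both libraries pools of male and female littermates and list the same donor record for them, so part of their spread may be technical. The sex-linked reads went against those labels, with 8721 reads of Xist in replicate 1 against 12 in replicate 2, and 0 reads of 4 Y-linked genes against 1382. The labels were kept, and the members' values are given for each library. Ensembl genes received 46271164 expected counts in replicate 1 and 45499552 in replicate 2. The tissue label fitted the level of its markers. The 7 colonocyte markers summed to 18636 and 20561 TPM and the 6 goblet cell markers to 28642 and 32348, against 55.9 and 52.0 for 7 small intestine markers. All of the colonocyte and goblet cell markers were detected in both libraries, beside 57.9% of protein-coding genes. None of them was called as differing, beside 6.11% of all genes tested, which does not bear on the tissue. The libraries also stood apart in acinar pancreas markers, whose summed level was 26.9 TPM in replicate 1 and 28828 in replicate 2. In bulk tissue, fewer cells of a type and less RNA per cell cannot be told apart.

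The colon transcribed a small part of the P450 repertoire at a high level and left most of it near or at 0. The summed level of the members was 1426 TPM (a level scaled for transcript length to the same total in each library) in replicate 1 and 1206 TPM in replicate 2, a mean of 1316 ± 155 (SD, n = 2). This was 0.143% and 0.121% of all transcripts. Of the 98 members, 28 (28.6%) reached a TPM of at least 1 in both libraries, against 57.9% of protein-coding genes, and 3 did so in a single library. By mean TPM, 18 members had at least 10, 13 had 1 to 10, and 67 were under 1. Among those 67, 36 had some reads and 31 had a count of 0 in both libraries. That is 31.6% of the members, beside 20.7% of protein-coding genes. At this depth a count of 0 allows a level of up to 0.0278 to 0.110 TPM over these genes and both libraries, depending on the gene's length, if 3 counts are taken as the limit. Such limits, like the intervals given with log2 ratios, cover counting error only.

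**Figure D1:**
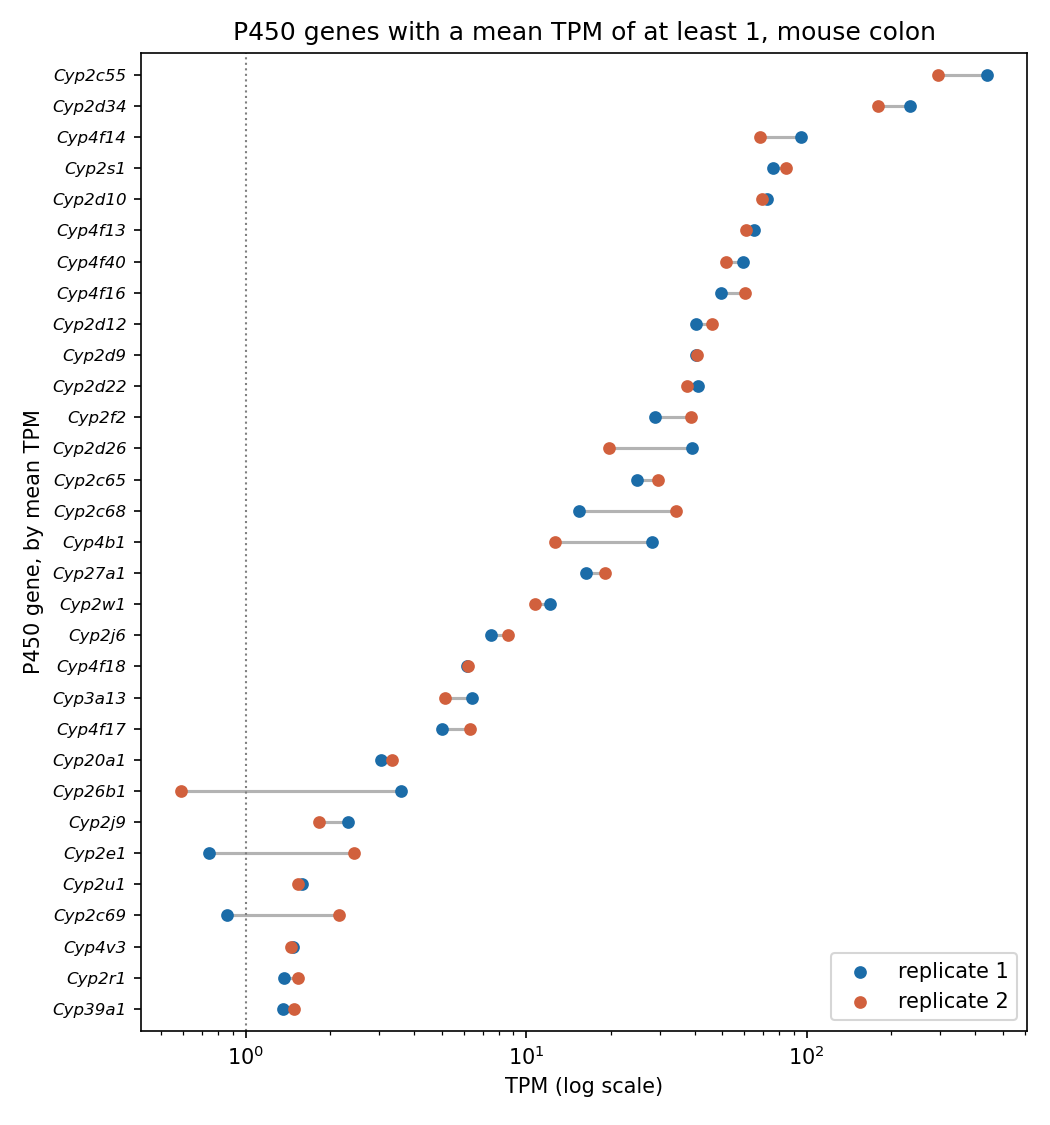
Level in TPM (log axis) of the 31 P450 genes whose mean TPM reached 1, ordered by that mean, with 1 point for each library and a line joining the points of a gene. Cyp2c55 and Cyp2d34 lead in both libraries, and the widest lines belong to Cyp26b1, Cyp2e1, Cyp2c69, Cyp2c68 and Cyp4b1.

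A few genes carried most of the P450 level. The highest member, Cyp2c55, held 30.9% of it in replicate 1 and 24.4% in replicate 2. The 2 highest held 47.4% and 39.3%, and the 10 highest held 82.3% and 79.3%. The median member had a count of 3 in each library. Family 2 held 75.8% and 75.1% of the level with 48 members, and family 4 held 21.8% and 22.2% with 20 members. The remaining 14 families together included 1 gene above 10 TPM, Cyp27a1.

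**Figure D2:**
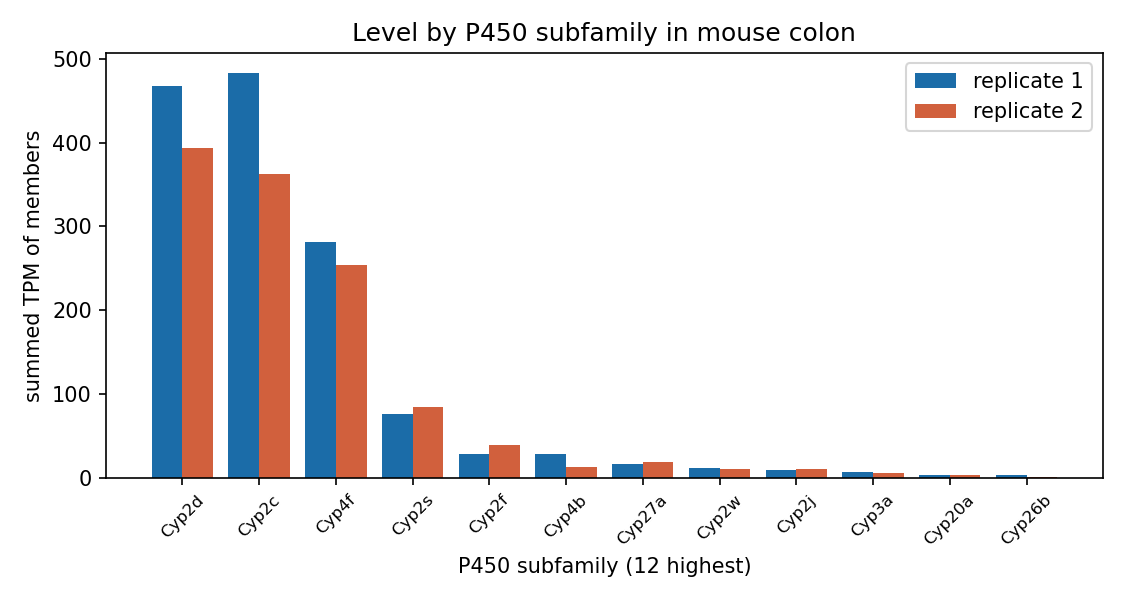
Summed TPM of the members of the 12 highest P450 subfamilies, with 1 bar for each library and no error bars. Cyp2d, Cyp2c and Cyp4f stand far above the others, and Cyp2c and Cyp2d change places between the libraries.

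The Cyp2c genes include enzymes that turn arachidonic acid into hydroxy and epoxy derivatives. Cyp2c55, which makes hydroxylated eicosanoids, measured 440.5 TPM in replicate 1 against 295 in the other library (28751 and 19082 counts). It was higher in replicate 1, with a log2 ratio of scaled counts of 0.56 (95% counting interval 0.53 to 0.59), short of the 2-fold threshold. Its transcripts ranked 282 and 418 among protein-coding genes, and none of its 76-base stretches occurred in another gene's transcripts. Cyp2c65, known from the gastrointestinal tract, had 24.9 and 29.5 TPM, and Cyp2c68 had 15.5 and 34.2 TPM. Both were higher in replicate 2. Cyp2c69 had 0.86 and 2.15 TPM, while Cyp2c66 had 0.38 and 0.21. The subfamily's 15 members summed to 483 and 362 TPM, of which Cyp2c55 held 91.2% and 81.4%. The reads of the smaller members were less certain: 28.1% of the 76-base stretches of Cyp2c68 and 42.3% of those of Cyp2c69 also occur in another gene, mostly Cyp2c40, so the estimated counts may be divided wrongly among them.

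The Cyp2c locus on chromosome 19 gave neighbouring, similar genes with very different levels, so the sequences upstream of 5 of them are shown. All but Cyp2c23 of the subfamily lie between 39007019 and 40187333 (mm10), and 14 genes share this interval. Cyp2c55 had 17.7 times the TPM of Cyp2c65 in replicate 1 and 9.98 times in replicate 2. Cyp2c65 in turn had 65.5 and 141 times the TPM of its neighbour Cyp2c66. Each window holds the 250 bases before the RefSeq transcript start (GRCm38.p6, the same assembly as mm10), written on the strand of its gene. Capitals mark TATAAA (the letters of a TATA box) and GCGTG (the core bound by the aryl hydrocarbon receptor). They also mark TTTATG (a Cdx core) and CAAAGTCCA (a core bound by Hnf4a). Each was searched as exact letters on both strands, at any position in the window. In Cyp2c66 capitals also mark the stretch aligned with the Hnf4a core of Cyp2c65.
Cyp2c55, chr19:39006769-39007018, plus strand: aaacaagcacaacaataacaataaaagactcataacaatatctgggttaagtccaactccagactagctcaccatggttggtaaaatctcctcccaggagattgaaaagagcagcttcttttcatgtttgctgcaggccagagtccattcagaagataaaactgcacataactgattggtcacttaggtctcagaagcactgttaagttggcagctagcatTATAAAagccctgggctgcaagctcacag
Cyp2c65, chr19:39060756-39061005, plus strand: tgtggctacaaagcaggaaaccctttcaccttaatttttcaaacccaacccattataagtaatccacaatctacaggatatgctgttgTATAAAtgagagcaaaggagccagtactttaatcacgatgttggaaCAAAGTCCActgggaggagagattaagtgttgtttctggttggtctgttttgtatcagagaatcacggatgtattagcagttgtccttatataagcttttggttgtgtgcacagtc
Cyp2c66, chr19:39113648-39113897, plus strand: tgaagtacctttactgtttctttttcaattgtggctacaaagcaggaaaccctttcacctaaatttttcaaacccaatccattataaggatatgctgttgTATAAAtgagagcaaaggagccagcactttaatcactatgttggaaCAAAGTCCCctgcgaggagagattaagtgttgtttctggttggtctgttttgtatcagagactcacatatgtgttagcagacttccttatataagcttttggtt
Cyp2c68, chr19:39741102-39741351, minus strand: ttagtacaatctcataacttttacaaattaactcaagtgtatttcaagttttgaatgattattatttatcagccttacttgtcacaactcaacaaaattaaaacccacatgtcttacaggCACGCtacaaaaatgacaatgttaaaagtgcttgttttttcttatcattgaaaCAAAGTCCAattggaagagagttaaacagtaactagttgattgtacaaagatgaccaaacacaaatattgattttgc
Cyp2c40, chr19:39812815-39813064, minus strand: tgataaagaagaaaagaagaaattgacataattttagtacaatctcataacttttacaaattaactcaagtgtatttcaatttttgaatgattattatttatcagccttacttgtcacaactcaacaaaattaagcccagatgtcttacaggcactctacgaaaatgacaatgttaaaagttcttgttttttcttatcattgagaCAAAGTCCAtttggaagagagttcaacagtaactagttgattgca

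In a gapped alignment, the windows of Cyp2c65 and Cyp2c66 had identical bases for 83.2% of 250, and so did those of Cyp2c68 and Cyp2c40. The other pairs among these 5 had 58.0% to 62.8%, and the value that unrelated windows would give was not measured. The Hnf4a core or its aligned stretch began at -116 in Cyp2c65 and -104 in Cyp2c66, and at -77 in Cyp2c68 and -45 in Cyp2c40. Each similar pair was therefore offset, and end bases without a partner lower its percentage. The members of each similar pair nevertheless stood far apart in level, with 24.9 and 29.5 TPM for Cyp2c65 against 0.38 and 0.21 for Cyp2c66, and 15.5 and 34.2 TPM for Cyp2c68 against 0.24 and 0.17 for Cyp2c40. Between Cyp2c65 and Cyp2c66, the aligned Hnf4a core differed at 1 of its 9 bases, A9C, counted from 1 at the 5′ end of the core with the base of Cyp2c65 written before the position. Cyp2c40 and Cyp2c68 both had the whole core. Cyp2c55, the highest of all, lacked the core and had TATAAA at position -29 relative to the start. TATAAA began at -162 in Cyp2c65 and -150 in Cyp2c66. Near the end of both of their windows lie the letters tatataag, which the exact search did not mark.

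Across the members, 72 of 98 matched a RefSeq window within 500 bases of the start of their leading transcript, and 26 did not. The Hnf4a core occurred in 11 of the 72 windows (15.3%), against 0.384% of all 32851 RefSeq windows. Its holders were Cyp2c65, Cyp2c68, Cyp2c69, Cyp2c40, Cyp2c67, Cyp2c70, Cyp8b1, Cyp3a11, Cyp3a16, Cyp3a41a and Cyp3a41b, so 6 of them were among the 12 Cyp2c windows and several are near-copies of one another. The core stood in 2 of the 15 windows of members averaging 10 TPM or more and in 3 of the 19 windows of members with a count of 0. TATAAA occurred in 38.9% of member windows and in 12.4% of all windows. It began 35 to 25 bases before the start on the gene's strand in 9 member windows (12.5%), against 1.75% of all. GCGTG was in 16.7% of member windows and 28.2% of all, and TTTATG in 15.3% and 10.8%. TTTATG was in 0 of the 15 windows of the high members and in 7 of the 19 windows of the members at 0. Those 7 include the near-copies Cyp3a41a and Cyp3a41b, with the match at -233 in both, and Cyp2b10, Cyp2b19 and Cyp2b23. Related windows of this kind are not independent. A match says only that these letters lie in the window.

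The Cyp2d genes, relatives of the human drug-oxidising enzyme CYP2D6, were mostly active. The 8 members lie together on chromosome 15 (82370527 to 82794294), 6 of them were detected in both libraries, and none had a count of 0 in both. The sum was 468 TPM in replicate 1 and 393 in replicate 2. Cyp2d34 led with 235 and 179.7 TPM, 50.1% and 45.7% of the subfamily, and was higher in replicate 1 (log2 ratio 0.36, interval 0.32 to 0.40). Cyp2d10 had 72.3 and 69.5 TPM, Cyp2d12 had 40.4 and 45.9, Cyp2d22 had 41.0 and 37.3, and Cyp2d9, a testosterone hydroxylase known for its male bias in mouse liver, had 40.4 and 40.8. These levels varied little between the libraries, and the interval of the log2 ratio included 0 for Cyp2d10 and Cyp2d9. Cyp2d26 was the exception among them at 39.1 and 19.7 TPM, with a log2 ratio of 0.96 (0.86 to 1.07), just under the 2-fold threshold. Cyp2d11 and Cyp2d40 stayed at or below 0.20 TPM. Cyp2d10 shares 21.8% of its 76-base stretches with other genes, mostly Cyp2d11, and Cyp2d9 shares 12.6%.

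The Cyp4f genes, whose enzymes inactivate leukotrienes and hydroxylate long fatty acids, formed the remaining large block. The 9 members summed to 281 and 254 TPM, and 8 of them lie between 32452723 and 32947402 on chromosome 17. Cyp4f14, which hydroxylates the leukotriene that draws neutrophils, had 95.7 and 68.5 TPM and was higher in replicate 1 by a log2 ratio of 0.46 (0.41 to 0.52). Cyp4f13 had 64.9 and 60.7 TPM, Cyp4f40 had 59.4 and 51.7, and Cyp4f16 had 49.7 and 60.2. The order of Cyp4f40 and Cyp4f16 turned between the libraries. Cyp4f17 had 5.03 and 6.32 TPM, and Cyp4f18, the neutrophil leukotriene hydroxylase encoded on chromosome 8, had 6.14 and 6.20. Cyp4f37 was at a count of 0, and Cyp4f15 and Cyp4f39 stayed at or below 0.31 TPM.

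The rest of family 4 was nearly silent apart from Cyp4b1 and Cyp4v3. Cyp4b1, an enzyme of the lung that hydroxylates fatty acids and activates some plant toxins, had 28.1 and 12.7 TPM. It lies at the end of a row of 10 Cyp4a, Cyp4b and Cyp4x genes on chromosome 4 and held 99.4% and 97.9% of that row's level. The 8 Cyp4a genes, the omega-hydroxylases of liver and kidney, summed to 0.01 and 0.05 TPM, and 6 of them had a count of 0. Cyp4v3, the mouse relative of a human retinal fatty acid hydroxylase, had 1.48 and 1.45 TPM, and Cyp4x1 had 0.17 and 0.22.

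**Figure D3:**
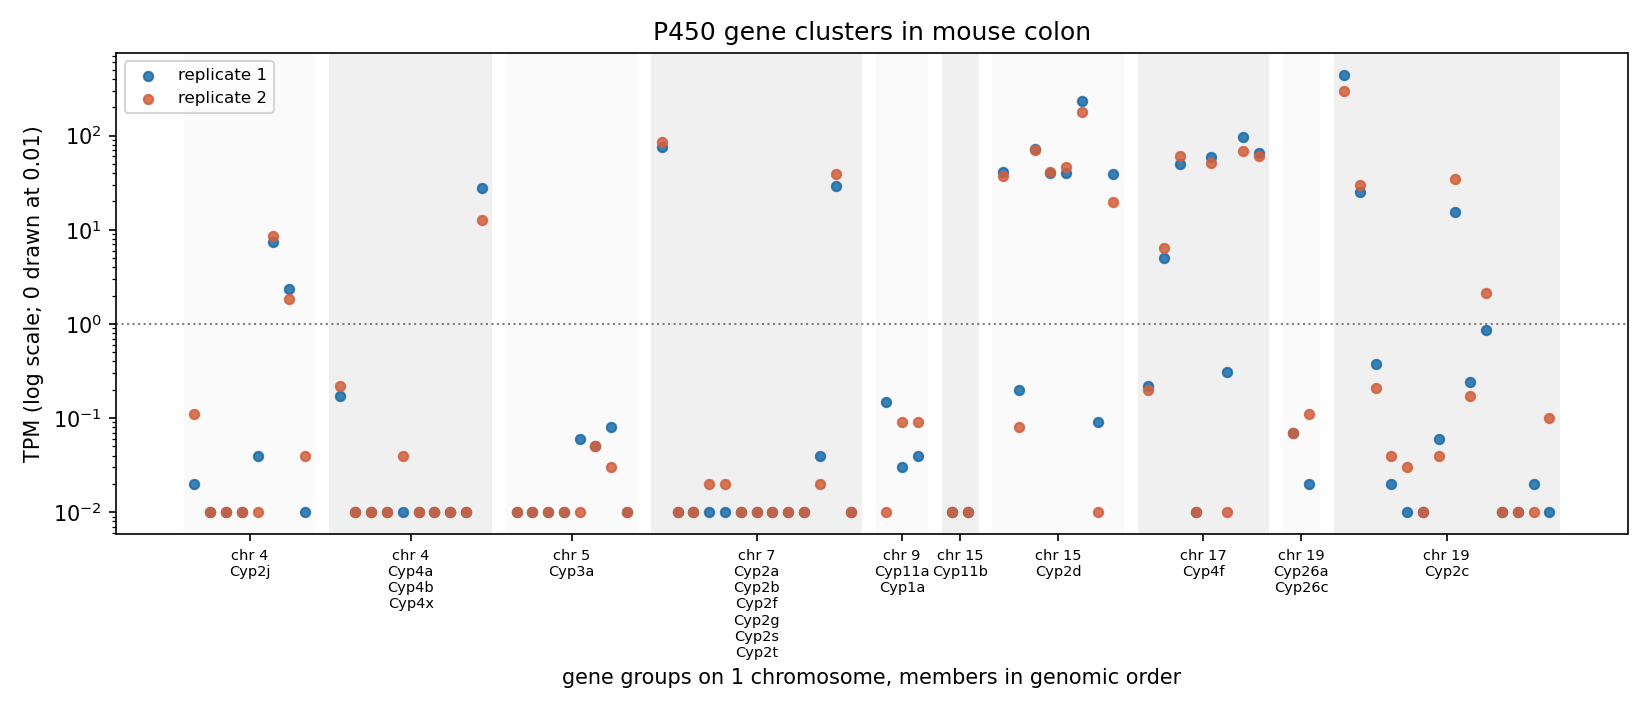
Level in TPM (log axis, 0 drawn at 0.01) of the 76 P450 genes that lie in 10 groups with gaps of at most 500 kb, members in genomic order, with 1 point for each library and a dotted line at 1 TPM. The Cyp2d and Cyp4f groups are mostly above the line, while the chromosome 7 group, the Cyp4a row and the chromosome 5 Cyp3a group have most or all of their members below it.

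Other gene groups held 1 or a few active members among silent ones. On chromosome 7, 13 members of Cyp2a, Cyp2b, Cyp2f, Cyp2g, Cyp2s and Cyp2t lie between 25802475 and 27158668, and 8 of them had a count of 0. Only Cyp2s1 and Cyp2f2 in that group reached 1 TPM in either library. Cyp2s1, an enzyme of surface epithelia, had 75.98 and 84.7 TPM, and Cyp2f2, the naphthalene oxidase of the lung airways, had 28.9 and 38.8. Both were higher in replicate 2 by less than 2-fold, with log2 ratios of -0.17 (-0.22 to -0.13) and -0.44 (-0.53 to -0.35). Both overlap annotated genes on the opposite strand, and whether counting used the strand is not given in the sources used here.

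The Cyp3a genes, the main drug oxidases of mouse liver and small intestine, gave the same pattern at a lower level. Cyp3a13, which stands alone on chromosome 5 away from its relatives, had 6.43 and 5.15 TPM. That was 97.1% and 98.5% of the level of the 9 Cyp3a genes. The other 8 lie side by side between 145345279 and 146113287, and they summed to 0.19 and 0.08 TPM with 5 at a count of 0. Cyp3a11, the leading member in mouse liver, had 0.05 TPM in each library. Among the Cyp2j epoxygenases on chromosome 4, Cyp2j6 had 7.48 and 8.65 TPM and Cyp2j9 had 2.32 and 1.82, and the other 6 of 8 did not exceed 0.11 TPM. Cyp2w1, known in humans from colon tumours, had 12.1 and 10.8 TPM, and the interval of its log2 ratio included 0.

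Sterol and bile acid enzymes were represented by a single substantial gene. Cyp27a1, the mitochondrial hydroxylase of the sterol side chain, had 16.3 and 19.2 TPM and held 84.9% and 86.0% of the level of the 6 genes of this role. Cyp39a1 had 1.36 and 1.49 TPM and Cyp7b1 had 0.70 and 0.86. These are oxysterol hydroxylases, and the interval of each log2 ratio included 0. Cyp46a1, the brain cholesterol hydroxylase, had 0.77 and 0.72 TPM, and Cyp8b1 had 0.08 and 0.06. Cyp7a1, the rate-limiting enzyme of bile acid synthesis in the liver, had a count of 0 in both libraries. The authors' posterior mean of TPM for it was nonetheless 1.46 and 0.96, the only such value of at least 0.5 among members with a count of 0.

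The vitamin D, retinoic acid, steroid hormone and aryl hydrocarbon receptor groups were low. Of the vitamin D enzymes, Cyp2r1, which starts activation, had 1.37 and 1.54 TPM. Cyp27b1, which completes it in the kidney, had 0.36 and 0.34. Cyp24a1, which breaks the hormone down, had 0.02 TPM in replicate 1 and a count of 0 in replicate 2. Among the retinoic acid hydroxylases Cyp26b1 reached 3.57 and 0.59 TPM, whereas Cyp26a1 and Cyp26c1 did not exceed 0.11. The 6 steroid hormone genes summed to 0.04 and 0.12 TPM, and Cyp11b1, Cyp11b2, Cyp19a1 and Cyp21a1 had a count of 0. The classical receptor targets had few reads as well, with 3 and 8 counts for Cyp1a1, 9 and 0 for Cyp1a2, and 29 and 65 for Cyp1b1. Cyp20a1, an orphan enzyme, had 3.04 and 3.32 TPM, and Cyp2u1, a fatty acid hydroxylase, had 1.59 and 1.54. The values just below a mean of 1 TPM belonged to Cyp7b1, Cyp46a1, Cyp2c23, Cyp27b1 and Cyp2c66, and Cyp39a1 stood just above it.

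The members were then compared between the 2 libraries, with a two-sided exact binomial test per gene that covers counting error only. It compares 2 libraries, not conditions, and has no replicate check. A gene was called at a Benjamini-Hochberg adjusted p of at most 0.05, adjusted over the 17713 genes whose counts summed to 10 or more, together with a ratio of 2-fold or more. Of 43 members tested, 7 were called (16.3%), beside 6.11% of all genes tested. There were 2 called higher in replicate 1, where 2.48% of all genes were called, and 5 called higher in replicate 2, where 3.63% were. The median log2 ratio was 0.02 over the members tested and -0.01 over all genes tested. With any fold allowed, 23 members passed the adjusted p (53.5%), close to the 48.9% of all genes. Of the 18 members with a mean of at least 10 TPM, 16 lay within 2-fold, and 10 were higher in replicate 1.

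**Figure D4:**
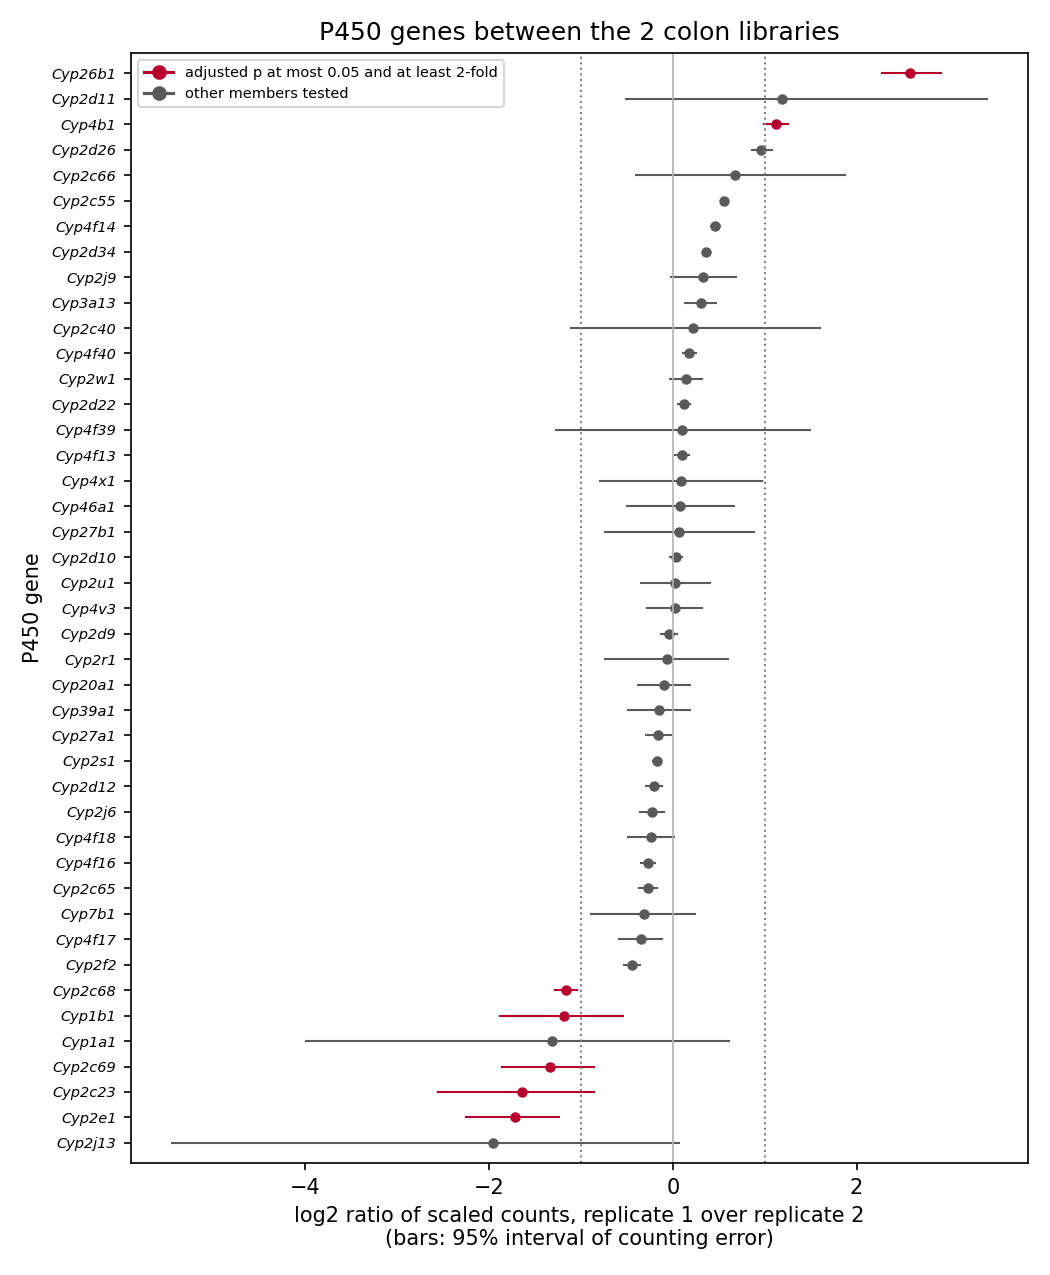
Log2 ratio of scaled counts, replicate 1 over replicate 2, for the 43 P450 genes tested, with the 95% interval of counting error as bars, a solid line at 0 and dotted lines at 2-fold. The 7 called genes are red: Cyp26b1 and Cyp4b1 lie to the right, and Cyp2c68, Cyp1b1, Cyp2c69, Cyp2c23 and Cyp2e1 to the left.

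Cyp26b1, which clears retinoic acid, had the largest ratio among the 43 members tested, with 586 counts in replicate 1 and 95 in replicate 2. Its log2 ratio was 2.59 (2.28 to 2.92, exact binomial test, adjusted p = 3.65e-83). It was also the only member called by edgeR's exact test with the spread between the libraries estimated over all genes (adjusted p = 0.00239), where the biological coefficient of variation was 0.271. Cyp4b1 had 1537 and 689 counts, a log2 ratio of 1.12 (0.99 to 1.26, exact binomial test, adjusted p = 3.49e-68). These 2 genes were higher in replicate 1, the library with the Xist reads.

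The genes higher in replicate 2 were 3 Cyp2c genes, Cyp2e1 and Cyp1b1. Cyp2c68 had 857 and 1878 estimated counts (log2 ratio -1.16, -1.28 to -1.05, exact binomial test, adjusted p = 3.78e-90). Cyp2c69, with 49 and 122 estimated counts, gave -1.34 (-1.86 to -0.86, exact binomial test, adjusted p = 5.40e-08), and Cyp2c68 had 18.0 and 15.9 times its TPM. Both share sequence with Cyp2c40, which had 12.4 and 9.74 counts. Cyp2c23, an arachidonic acid epoxygenase known from the kidney, had 17 and 53 counts and a log2 ratio of -1.64 (-2.55 to -0.86, exact binomial test, adjusted p = 4.97e-05). Cyp2e1, the ethanol-oxidising enzyme of the liver, had 44 and 143 counts and a log2 ratio of -1.72 (-2.25 to -1.24, exact binomial test, adjusted p = 5.35e-13). Cyp1b1, which hydroxylates estradiol and is induced through the aryl hydrocarbon receptor, had 29 and 65 counts and a log2 ratio of -1.18 (-1.88 to -0.54, exact binomial test, adjusted p = 0.000562). None of these 5 was called by edgeR's exact test, which found 4 of them at an unadjusted p of at most 0.05 and at least 2-fold.

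Markers of other tissues moved unevenly between the same libraries, most of all those of acinar pancreas. Beside the calls in these lists, 6.11% of all genes tested were called. All 8 acinar pancreas markers were called higher in replicate 2, and none was at 0 in either library. Of 6 adipocyte markers, 2 were called higher in replicate 2, Cfd and Fabp4. The sums were 233 and 496 TPM, mostly Cfd with 181 and 412, and none was at 0. Lipe, Plin1 and Adipoq were higher in replicate 2 by less than 2-fold. Lep went the other way, with 1.16 and 0.85 TPM, and was not called. The 7 liver markers summed to 33.2 and 39.9 TPM, mostly Ttr, with Alb at 1.39 and 1.82 TPM. The 1 gene called was Serpina1a, higher in replicate 1 with only 11.76 and 2.29 counts. Ttr and Alb had the higher TPM in replicate 2. The 7 small intestine markers summed to 55.9 and 52.0 TPM. The 1 gene called was Sis, higher in replicate 1 with 53 and 17 counts, although its TPM was 0.25 and 0.24. Fabp2, not called, went the other way with 10.5 and 18.3 TPM. The adrenal and gonad markers summed to 0.43 and 0.40 TPM. With 1 library on each side, these tissues, sex and library cannot be told apart. Their part in the 7 differences was not tested.

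The transcript tables showed which isoforms carried the leading members. Cyp2c55, Cyp2d34, Cyp2d10, Cyp2d12, Cyp2d9 and Cyp4f40 each had 1 annotated transcript. Cyp4f14-202 held 73.4% and 67.4% of its gene's level and Cyp4f14-201 the remainder. Cyp2s1-201 held 89.3% and 92.2%, and Cyp4f13-201 held 70.4% and 67.7%. Cyp4f16 was the most divided, with 36.7% and 39.6% in its leading transcript Cyp4f16-201, 18.4% and 12.7% in another coding transcript, Cyp4f16-208, and 25.0% and 21.3% in Cyp4f16-205, which retains an intron. A transcript with a retained intron also took 22.6% and 27.9% of Cyp27a1. Others were Cyp4f13-202, with 12.38% and 13.55% of Cyp4f13, and Cyp2s1-203, with 8.72% and 6.2% of Cyp2s1. The coding part of Cyp4f16, Cyp27a1, Cyp4f13 and Cyp2s1 was thus below their gene-level TPM. In Cyp26b1, Cyp26b1-202 held 91.6% in replicate 1 and 100% in replicate 2.

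The listed partners that P450 enzymes need were all detected in both libraries, beside 57.9% of protein-coding genes. The 7 electron donor genes summed to 626 and 604.5 TPM, and none was called, beside 6.11% of all genes tested. At that share, few or no calls would fall in any list of this size. Por, the reductase that feeds electrons to the microsomal P450s, had 150.2 and 169 TPM, and Cyb5r3 had 164 and 141. The 12 genes of heme synthesis and breakdown summed to 574 and 588 TPM, again with none called, and Alas1, the rate-limiting enzyme of heme synthesis, had 145.6 and 150.1 TPM. Of 16 receptors and factors known to control P450 genes, 14 were detected in both libraries. Hnf4a led with 595 and 530.4 TPM, followed by Vdr with 127 and 126, and Nr1i2, the receptor for many foreign compounds, had 34.7 and 33.4. The aryl hydrocarbon receptor gene Ahr had 7.30 and 7.87 TPM. Nr0b2, the bile acid-induced repressor, was the only one called, with 4 counts in replicate 1 and 51 in replicate 2 (log2 ratio -3.55, exact binomial test, adjusted p = 8.38e-11). None of the 10 other eicosanoid enzymes was called, and the cyclooxygenase gene Ptgs1 was highest of them with 34.9 and 45.4 TPM. Outside the naming rule, the prostacyclin synthase gene Ptgis had 23.3 and 20.9 TPM, and the sterol demethylase Cyp51 had 20.2 and 17.1 TPM.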

How the data were processed

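Both colon libraries were stranded, paired-end and poly(A)-selected, per the labels. The deposited gene and transcript tables hold expected counts (estimated, not normalized), FPKM, TPM and a posterior mean of the TPM, each given by the authors. The authors' transcript tables also give the percent of each gene's level in each transcript. Per the deposited file notes, the tables rest on mm10 and GENCODE M4. Not given in the sources used here are the aligner, the quantifier's version and the use of strand in counting. Deposited mm9 junction and contig files were not used.

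Symbols, biotypes and coordinates came from GENCODE vM21 (mm10) by identifier without version, and 42462 of 43346 Ensembl genes matched. Counts were rounded to whole numbers and compared with library sizes scaled by the TMM method of edgeR 4.0.16 (R 4.3.3). Log2 ratios are replicate 1 over replicate 2 with 0.5 added to each count, and intervals are exact 95% Clopper-Pearson. The test was checked on simulated counts with counting error alone, the error that it assumes. That check does not cover other spread between the libraries. A gene was detected at a TPM of at least 1. Shared sequence is the percent of a gene's 76-base stretches, the read length, found in transcripts of another gene. It was taken from GENCODE vM21 transcripts, while the counts rest on M4, so the overlap met in counting may differ. Windows upstream of genes came from RefSeq. DESeq2 1.42.0 size factors, edgeR's exact test at the common dispersion, other minimum counts, folds and units were alternatives. Named members are those whose mean TPM reached 1, those called, the 5 nearest below 1 and the members of each role. Other genes named from the lists are among the 3 highest of their list, with some exceptions named after their values were seen. These are Ahr, Nr1i2, Nr0b2, Serpina1a, Sis, Fabp4, Adipoq and Lep. Members and lists were chosen with earlier results of these data known.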

Additional observations from a re-analysis of the deposited data

How the results depend on the processing

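The summed P450 level of 1316 TPM was 1031 in FPKM and 1039 with only the members whose counts were whole in both libraries. With 1 library left out it ranged from 1206 to 1426. The share of family 2 was 76.2% with expected counts, without length scaling, and 75.1% to 75.8% with 1 library left out. The number of detected members ranged from 22 to 33 over minimum levels of 5 to 0.5 TPM, and was 30 and 29 with 1 library left out. The 7 members called as differing became 1 under edgeR's exact test at the common dispersion (1 higher in replicate 1 and 0 in replicate 2, with 2 and 4 at an unadjusted p of at most 0.05), among 239 genes of all in place of 1083. With no fold threshold there were 23, 10 of them higher in replicate 1 and 13 in replicate 2, among 8654 of all. With a minimum count of 100, 5 members were called, among 414 genes of all. Of these members, 3 were higher in replicate 2, among 246 genes of all, since Cyp1b1 and Cyp2c23 were then not tested. DESeq2 size factors, total counts and no minimum count gave 7 to 8. The log2 ratios of 33 members kept their direction and call in all 132 alternative values. These came from DESeq2 size factors, 1 added to each count, the ratio of TPM and the ratio of its posterior mean. Such settings lie close to the main one, and the TPM ratios kept its adjusted p. They leave out edgeR's exact test, so they do not measure how firm the calls are. A count between libraries cannot be had with 1 left out. No paired analysis was possible because there is 1 group. Members with few reads are limited by depth, as the wide intervals of Cyp1a1 and Cyp2j13 show.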
